A study of Arabidopsis thaliana with 11 samples.

Results

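QQS (AT3G30720) is represented by 1 probe set, the only one that the platform annotation names for this gene, out of 22746 probe sets on the ATH1 array apart from controls. It was followed over all 11 arrays of a study of etiolated Arabidopsis seedlings. QQS was chosen by its measured difference in level between the genotypes in these same arrays, so its genotype difference is given below as a description without a test. The groups were the wild type Col on mock medium (3 arrays), Col on 0.5 µM brassinazole (BRZ, 3 arrays), the arf2 mutant on mock medium (3 arrays) and arf2 on 0.5 µM BRZ (2 arrays). All seedlings were 4 days old and had been raised in the dark, and each array carries total RNA of whole seedlings from a separate biological replicate. For arf2 on BRZ the submitters kept only the arrays that passed their quality control. The labels name no arf2 allele, so whether 1 or several mutant lines were used is not known here. ARF2 itself was not checked, because no probe set is annotated with it alone, or with any of the 6 listed genes of brassinosteroid synthesis alone.

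QQS (qua-quine starch) encodes a small protein found in Arabidopsis thaliana without recognisable relatives in other species, which makes it an orphan gene. It was first noticed in a mutant with altered leaf starch, plants with less QQS accumulate more starch in their leaves, and the protein binds NF-YC4, a subunit of the NF-Y transcription factor. The gene sits among transposon remnants, and its expression is known to vary between accessions and lines together with DNA methylation near its start. ARF2 is a DNA-binding auxin response factor that mainly represses transcription, and BRZ blocks a cytochrome P450 step of brassinosteroid synthesis. These statements are background and not results of the arrays.

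The arrays did not share 1 level. The array median of log2 intensity over the tested probe sets ranged from 5.93 on Col mock array 2 to 6.28 on arf2 BRZ array 2. Values below are therefore accompanied by the percentile of QQS on its own array where the level matters. Of 8 light-regulated genes listed as a check of growth in darkness, only RCA, rubisco activase, had a tested probe set that names it alone. It read 1626 to 2519 over the 11 arrays (percentiles 96.4 to 98.1), so the labelled dark growth could not be checked from a single light-regulated gene that was high on every array. The values are of whole seedlings, in which more cells with the transcript and more transcript per cell cannot be told apart.

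In Col, QQS was low on both media. Its gcRMA intensity was 48.0, 41.2 and 39.4 on the mock arrays and 39.6, 43.5 and 45.6 on the BRZ arrays. These 2 sets of arrays overlapped fully, and QQS lay between the 38.9th and the 45.0th percentile of the tested probe sets on its array, below the median and above the lower quartile. In arf2, QQS read 255, 317 and 260 on mock and 394 and 388 on BRZ. All 5 arf2 arrays lay above all 6 Col arrays, with a gap of 5.31-fold between the lowest arf2 and the highest Col array, and QQS reached the 74.1st to 82.0th percentile. The same separation, all arf2 arrays above all Col arrays, was seen for 2.37% of the tested probe sets.

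**Figure D1:**
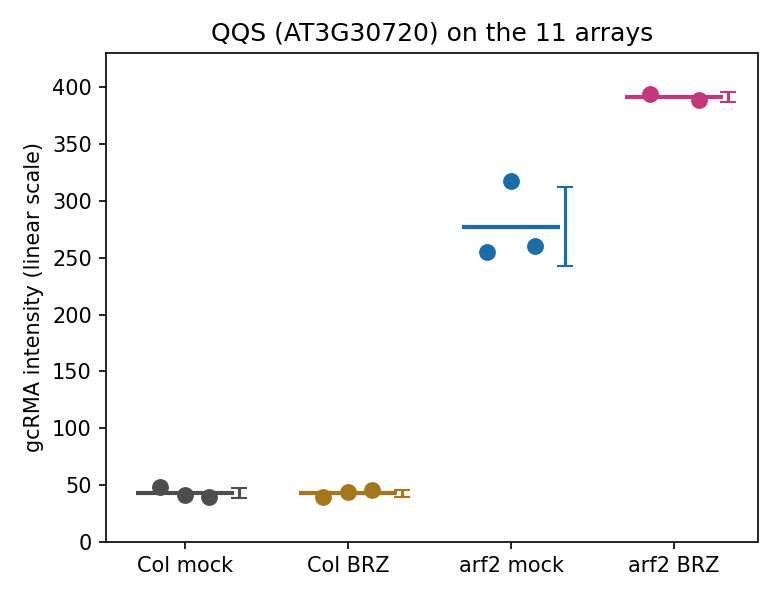
QQS intensity (gcRMA estimate, linear scale, vertical axis) on each of the 11 arrays, by group on the horizontal axis. Points are arrays, horizontal lines group means and vertical bars 1 SD to each side. The 6 Col arrays sit between 39.4 and 48.0, the arf2 mock arrays between 255 and 317, and both arf2 BRZ arrays above them at 388 and 394.

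The mean intensity of QQS was 42.9 ± 4.52 (SD, n = 3) in Col on mock and 42.9 ± 3.05 (SD, n = 3) in Col on BRZ. It was 277 ± 34.5 (SD, n = 3) in arf2 on mock and 391 ± 4.29 (SD, n = 2) in arf2 on BRZ. From low to high the order of the log2 means was Col mock at 5.417, Col BRZ at 5.421, arf2 mock at 8.11 and arf2 BRZ at 8.61. The first 2 groups in this order did not differ beyond their spread, and the step from Col to arf2 was many times the spread of any group. The residual SD of QQS within groups was 0.134 on the log2 scale, against a median of 0.150 over all tested probe sets.

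As a description of the difference for which the gene was chosen, QQS was 6.46-fold higher in arf2 than in Col on mock (log2 change 2.69 ± 0.11 SE) and 9.13-fold higher on BRZ (log2 change 3.19 ± 0.13 SE). Among 21886 tested probe sets, QQS had the largest upward difference on BRZ and the 14th largest on mock. It was the only tested probe set at least 4-fold higher in arf2 on both media. On mock alone 39 probe sets, QQS included, reached 4-fold, and on BRZ alone 3 did. The low Col level depends on the background correction inside gcRMA, and the fold changes depend on it with it.

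**Figure D2:**
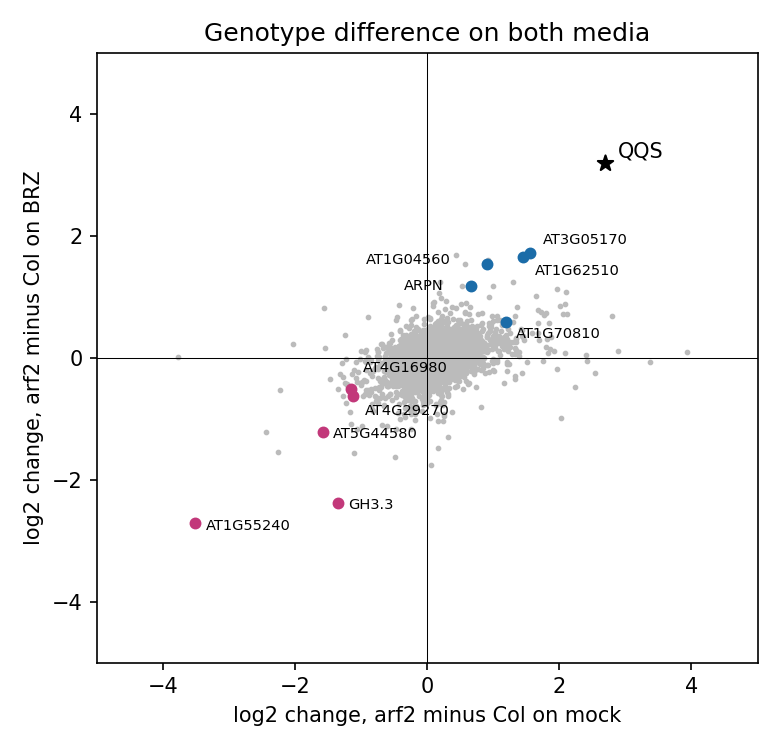
Log2 change between arf2 and Col on mock (horizontal axis) and on BRZ (vertical axis) for 12853 tested probe sets that name 1 gene, in grey. The star is QQS, at 2.69 and 3.19, blue points are the 5 genes with the most similar pattern over the arrays and pink points the 5 with the most opposite pattern.

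Whether QQS responds to the inhibitor was asked within each genotype. In Col the log2 change from mock to BRZ was 0.0041 ± 0.113 (SE), and limma's moderated test gave an adjusted p of 0.985. The 95% interval of the change ran from 0.845-fold to 1.19-fold. Both sets of Col arrays enter the genotype differences for which QQS was chosen, so low Col values were part of the choice. This adjusted p is therefore not an independent test, and the change is given as a description. Of all tested probe sets, 8.94% were called in this comparison. The change stayed uncalled under the 23 alternatives tried, with log2 changes between -0.18 and 0.12 (adjusted p 0.386 to 0.987).

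In arf2, QQS was 1.42-fold higher on BRZ than on mock (log2 change 0.50 ± 0.13 SE, 95% interval 0.23 to 0.78, limma's adjusted p 0.0388). Both BRZ arrays lay above the 3 mock arrays, but the share of all tested probe sets with this separation was not counted. In this comparison 2.92% of tested probe sets were called higher, the median change over all of them was 0.00, and 7.16% changed by more than QQS in either direction. Both sets of arf2 arrays also enter the genotype differences for which QQS was chosen, and on BRZ its difference was the largest upward one of all, so high values on the arf2 BRZ arrays were part of the choice. The adjusted p is therefore not an independent test, and the change is given as a description. The change kept its sign under all 23 alternatives, between 1.34-fold and 1.52-fold, but its adjusted p was at or above 0.05 under 13 of them (adjusted p 0.0103 to 0.219 over all 23). This held for omission of arf2 BRZ array 1 (adjusted p 0.219), of its array 2 (0.185), of arf2 mock array 1 (0.136) or 3 (0.116) and of Col BRZ array 1 (0.0528), 2 (0.0628) or 3 (0.0600), which enter only through the shared variance. It also held with equal array medians (0.149), where the change was 0.42 on the log2 scale.

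The difference between the genotypes in their BRZ response was tested as an interaction, the change in arf2 minus that in Col. It was 0.50 ± 0.17 (SE, log2 scale, 95% interval 0.13 to 0.87) and did not pass (limma's adjusted p 0.318, unadjusted p 0.0127). Over the alternatives it ranged from 0.34 to 0.60 and was never called (adjusted p 0.134 to 0.782). In this contrast 0.841% of tested probe sets were called. A response of QQS to BRZ that differs between arf2 and Col was therefore not shown. The interaction uses the same arrays as the choice of the gene.

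The genes around QQS on chromosome 3 were next read in their order in the TAIR10.1 gene table. Of the 10 genes on each side of QQS, 15 are listed as pseudogenes, 3 as protein-coding and 2 as long non-coding RNAs. The named probe sets closest to QQS on one side, for AT3G30730 and AT3G30740, did not pass the filter on low values. Their log2 intensities never exceeded 4.02 and 3.81 on any array. In arf2 their group means were 3.83 and 3.99 for AT3G30730 and 3.71 and 3.73 for AT3G30740, next to 8.11 and 8.61 for QQS.

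The 5 nearest tested genes on each side, 9 of them pseudogenes, were all low. Counted in genes from QQS, their positions ran from -32 to -12 on one side and from 19 to 51 on the other. None of them was therefore among the adjacent genes counted above. Over these 10 tested genes and 11 arrays the log2 intensity ranged from 3.64 to 5.51, and no group mean exceeded 5.22. None of the 10 was called by limma between arf2 and Col on mock, with log2 changes from -0.42 to 0.11 and 0 genes at an unadjusted p under 0.05, where 7.35% of all tested probe sets were called. None was called on BRZ either, with changes from -0.17 to 0.16, again with 0 at an unadjusted p under 0.05 and a background of 0.617%. None was called for BRZ against mock in Col (1 at an unadjusted p under 0.05), where 8.94% of all tested probe sets were called. In arf2 none was called either (0 at an unadjusted p under 0.05, against 5.81% of all probe sets called). With 10 genes, a count of 0 is near the background in each of these comparisons. Leaving out Col mock array 3 gave 1 call between the genotypes on mock and 2 for BRZ in Col, where the same omission raised the share of all tested probe sets called to 13.9% and 23.3%, and every other alternative gave 0. For 0 of the 10 genes did all arf2 arrays lie above all Col arrays. That separation was seen for 2.37% of all tested probe sets, so with 10 genes a count of 0 is near that share. The nearest of them, AT3G30710, read 4.70 in Col mock, 4.58 in Col BRZ, 4.77 in arf2 mock and 4.42 in arf2 BRZ as log2 means. The probe sets of AT3G30670 and AT3G30660 carry the array maker's suffixes for probes that match more than 1 transcript. Col mock array 2 was the highest of its group at 9 of the 10 genes, and its lower quartile, 4.65, was also the highest of the arrays.

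**Figure D3:**
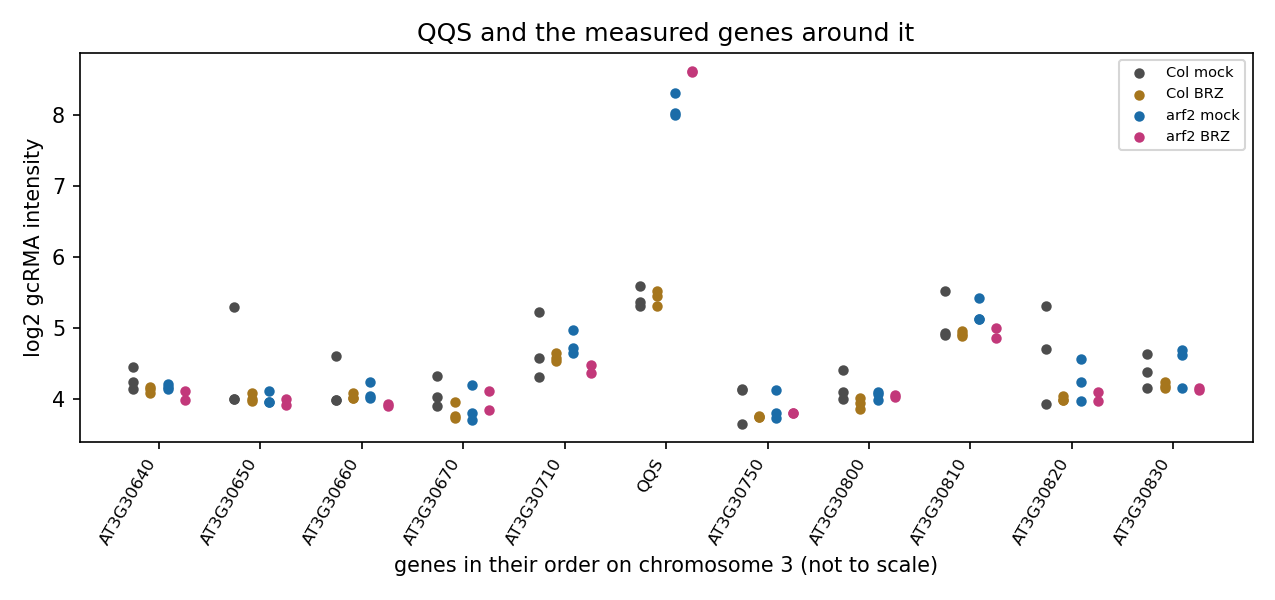
Log2 gcRMA intensity (vertical axis) of QQS and of the 5 nearest tested genes on each side, in their order on chromosome 3 and not to scale (horizontal axis). Each point is 1 array, coloured by group. Among the genes shown, the arf2 arrays stand above the Col arrays at QQS, while the 10 neighbours stay between 3.64 and 5.51 in every group.

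Pseudogenes elsewhere in the genome were counted as well, a class chosen after the annotation of the neighbours had been seen. Of 989 probe sets that name a single pseudogene, 773 passed the filter, at a median log2 level of 4.18 against 5.94 for protein-coding genes. On mock, limma called 4 of the 773 higher in arf2 and 0 lower (0.517%), with 36 at an unadjusted p under 0.05. It called 6.55% of 12011 protein-coding probe sets and 7.35% of all tested probe sets in either direction. On BRZ it called 0 of the 773 (10 at an unadjusted p under 0.05), 0.475% of the protein-coding ones and 0.617% of all tested probe sets. Among the 4 pseudogenes higher on mock, the log2 change was 1.09 for AT2G23330, 0.58 for AT1G31100, 0.50 for AT2G13970 and 0.40 for AT3G13270. This class had the lower median level, and whether the level plays a part in its count was not tested.

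Starch genes were examined because QQS is known for its effect on starch. Of 17 listed genes of starch synthesis, 4 had a tested probe set that names them alone, and of 25 listed genes of starch breakdown, 3 did. The others may still be on the array, since the annotation names no gene for 8730 probe sets and several for 503. Between arf2 and Col none of the 7 was called by limma on mock (0 at an unadjusted p under 0.05) or on BRZ (1 at an unadjusted p under 0.05). Over all tested probe sets the shares called were 7.35% and 0.617%, so with 7 genes a count of 0 is near the background. The median log2 change on mock was -0.04 for the synthesis genes and 0.09 for the breakdown genes, next to 0.05 over all tested probe sets. On BRZ it was 0.05 and -0.06, next to 0.005 over all. None of the 7 was called for BRZ against mock in Col, with 0 at an unadjusted p under 0.05, where 8.94% of all tested probe sets were called.

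In arf2 on BRZ 1 of the 7 rose and none fell, where 2.92% of all tested probe sets were called higher and 5.81% in either direction. At an unadjusted p under 0.05 there were 2 of the 4 synthesis genes, APL3 and SBE2.2 (log2 change 0.34, adjusted p 0.283), and 1 of the 3 breakdown genes, DPE1 (log2 change -0.31, adjusted p 0.273). The gene called was APL3, a large subunit of ADP-glucose pyrophosphorylase, which makes the glucose donor for starch synthesis. APL3 read 27.2, 25.8 and 23.9 on the arf2 mock arrays and 35.3 and 43.1 on the arf2 BRZ arrays. Its change was 1.52-fold (log2 change 0.61 ± 0.15 SE, limma's adjusted p 0.0322). In Col APL3 read 25.6 to 35.3 on mock and 27.1 to 31.3 on BRZ. Its log2 mean in arf2 on mock, 4.68, was close to the lower quartiles of the arrays, 4.44 to 4.65. The size of the APL3 change therefore depends on the background correction. The APL3 call was lost under 9 of 22 alternatives (adjusted p 0.00411 to 0.298), among them the omission of either arf2 BRZ array (0.0671 without array 1, 0.298 without array 2) and of arf2 mock array 1 (0.065), 2 (0.0750) or 3 (0.0993). It was also lost without Col BRZ array 2 (0.0534) or 3 (0.0523). Its interaction was 0.59 ± 0.20 and did not pass (adjusted p 0.302).

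None of the other 6 starch genes followed was called in any comparison. SBE2.2, a starch branching enzyme, read 255 to 363 over the 11 arrays, and its log2 changes in the comparisons between 2 groups ranged from -0.07 to 0.34. PWD, which phosphorylates starch for its breakdown, read 302 to 399, with changes from -0.17 to 0.09. DPE1, a glucan-transferring enzyme of starch breakdown, read 63.6 to 91.5, with changes from -0.31 to 0.095. APL4, another large subunit of ADP-glucose pyrophosphorylase, AMY1, an alpha-amylase, and the list member AT5G39790 never exceeded 41.3, the highest value of AMY1. For the 24 listed NF-Y subunits, NF-YC4 included, and for 18 listed genes of DNA methylation and silencing the annotation names no probe set alone, so these genes were not analysed here.

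The genes whose pattern was most like that of QQS were found by Pearson's correlation of log2 values over the 11 arrays, among 375 probe sets that name 1 other gene and whose group means span at least 1 log2 unit. The arrays fall into 4 groups, so these correlations mostly describe group differences and are given without a test. Limma's adjusted p values given below for these genes come from the same arrays that picked them. They are therefore not independent tests. Over all tested probe sets, without regard to range or naming, 35 besides QQS exceeded 0.9. Of the 375, only 3 did. They were AT3G05170 (r = 0.99), AT1G04560 (r = 0.94) and ARPN (r = 0.92), the gene for plantacyanin, a small blue copper protein. AT1G62510 (r = 0.89) and AT1G70810 (r = 0.88) followed.

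AT3G05170 read 21.5, 23.6 and 17.5 in Col on mock, 16.9, 23.6 and 20.4 in Col on BRZ, 61.8, 65.2 and 56.7 in arf2 on mock and 64.1 and 68.9 in arf2 on BRZ. As with QQS and the other genes most like it, all arf2 arrays of AT3G05170 lay above all its Col arrays. Its log2 change was 1.56 on mock and 1.72 on BRZ. Its Col means, 4.37 and 4.33 on the log2 scale, lay below the lower quartile of every array, so the size of its step depends on the background correction and is not ranked against that of QQS. From mock to BRZ in arf2 its log2 change was 0.12 ± 0.16 (SE), and limma did not call it (adjusted p 0.761). Among probe sets that name 1 other gene and meet the range rule, AT3G05170 ranked first in likeness under each of the 14 settings compared, the main one included. AT1G62510, unlike QQS, rose with BRZ in Col too, from 402 to 479 on mock to 729 to 789 on BRZ (log2 change 0.77 ± 0.12, limma's adjusted p 0.00199). AT1G70810 went the other way in arf2 on BRZ, with a log2 change of -0.40 that did not pass (adjusted p 0.0994).

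The most opposite patterns were those of AT1G55240 (r = -0.96) and GH3.3 (r = -0.93), which encodes an auxin-conjugating enzyme, followed by AT5G44580, AT4G29270 and AT4G16980 (r = -0.87, -0.87 and -0.86). AT1G55240 read 557, 695 and 614 in Col on mock and 325, 462 and 420 in Col on BRZ, against 44.1 to 64.9 in arf2 on mock and 67.2 and 54.7 in arf2 on BRZ. GH3.3 read 352 to 365 in Col on mock, 637 to 729 in Col on BRZ, 134 to 148 in arf2 on mock and 119 and 147 in arf2 on BRZ. Thus in Col, where the mean of QQS was 42.9 on both media, AT1G55240 was lower and GH3.3 higher on BRZ (log2 changes -0.64 and 0.93, limma's adjusted p 0.0374 and 0.000216). Both genes were picked by their pattern on these same arrays, so the changes are given as a description.

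**Figure D4:**
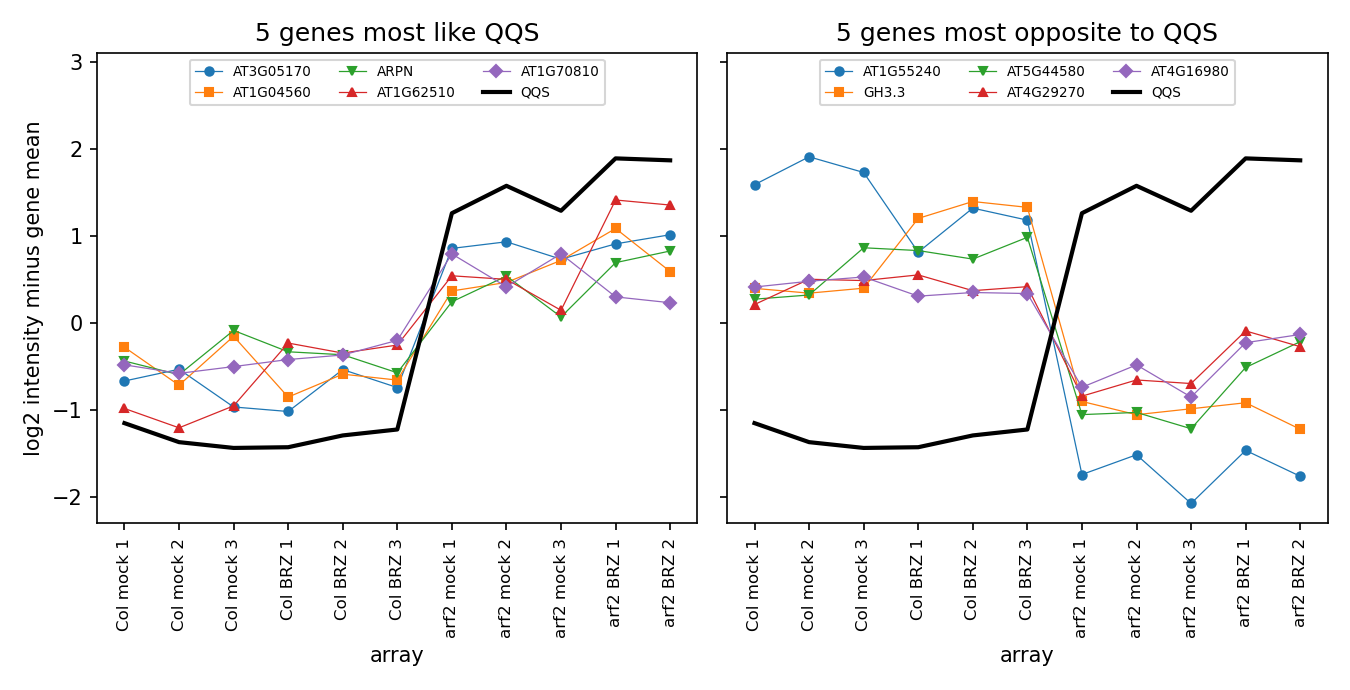
Log2 intensity minus each gene's mean over the 11 arrays (vertical axis), for QQS in black and for the 5 genes most like it (left) and most opposite to it (right), by array (horizontal axis). Lines join the arrays only to guide the eye. In the left panel QQS and all 5 genes most like it are higher on each of the 5 arf2 arrays than on any of the 6 Col arrays. AT1G55240 shows the largest step downward in the right panel.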

How the data were processed

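Total RNA was hybridised to 11 Affymetrix ATH1 arrays. Per the labels' design text, the authors ran quality control with simpleaffy and computed the deposited intensity values with gcRMA, which corrects the background, normalizes between arrays and summarises each probe set. Versions are not given in the sources used here. The deposited values were on a linear scale, and their log2 was taken.

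Of 22746 probe sets (64 controls left out), the 21886 whose log2 exceeded 4 on 2 or more arrays were tested. The supplied annotation names 1 gene for 13513 probe sets, several for 503 and none for 8730. For 13436 of the first the TAIR10.1 gene table supplied symbols and gene order.

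All arrays entered 1 limma 3.58.1 model (R 4.3.3) with 4 group means and a shared moderated variance. Adjusted p is the two-sided p after Benjamini-Hochberg correction over all tested probe sets, called under 0.05. The fit was tested on simulated data. Figures used matplotlib 3.10.9 (Python 3.11.15). Named genes were QQS, the 5 highest and 5 lowest in correlation with it, called members of the gene lists with those needed for a range, and 5 tested neighbours a side. QQS, the lists and the tests were chosen with earlier results of these data known. Alternatives were other filters, scalings and variance models, array weights, a replicate block, single arrays or sets of 2 or 3 arrays left out, fits of 2 groups and rank correlation. The number of arrays limits the precision.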

Additional observations from a re-analysis of the deposited data

How the results depend on the processing

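The higher level of QQS in arf2 on BRZ (0.50 on the log2 scale) kept its direction throughout, at 0.45 to 0.60 with single arrays left out, and was no longer under the threshold with quantile normalization (0.50, adjusted p 0.0631), equal array medians (0.42), trend and robust variances (0.50, adjusted p 0.0582), the fit of only both arf2 groups (0.50, adjusted p 0.0587) and with array 2 of Col mock and array 3 of arf2 mock omitted (0.46, adjusted p 0.0669). With the replicate number as a block it was 0.49 (adjusted p 0.118). The numbers were not taken to pair the arrays, since the 15 pairs with the same number in different groups had residual correlations from -0.59 to 0.14. Pairs with different numbers ranged from -0.44 to 0.60, so some arrays of different groups departed together, among them array 2 of Col mock with array 3 of arf2 mock (0.60) and array 3 of Col mock with array 1 of arf2 mock (0.48). The genotype difference on mock was 2.55 with equal array medians and 2.85 with arrays 1 and 2 of Col mock and array 3 of arf2 mock omitted, against 2.69, and 2.59 to 2.78 with single arrays left out. On BRZ it stayed between 3.13 and 3.24. Of the 5 genes most like QQS, rank correlation kept 2 and single omissions 3 to 5. Of the 5 most opposite, rank correlation kept 0, quantile normalization 3 and single omissions 3 to 5. The causes were not tested. The counts behind the background shares moved by more than 1.5 times: 665 to 5084 against 1956 for BRZ in Col, 503 to 2693 against 1271 for BRZ in arf2, 737 to 3040 against 1609 for genotype on mock, 49 to 903 against 135 for genotype on BRZ and 62 to 344 against 184 for the interaction. Added after seeing the data, equal array medians and no filter gave 2 to 4 pseudogene calls for genotype on mock and 0 on BRZ.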
